A study of Mus musculus with 7 samples.

Results

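The contractile unit of striated muscle, the sarcomere, is built from subunits that exist in a fast and a slow form, and 10 genes that encode such forms were followed across 7 mouse tissues. Members were taken by name. The fast genes were Myh1, Myh2 and Myh4 for the myosin heavy chain, Tnni2 for troponin I, Tnnt3 for troponin T and Tnnc2 for troponin C. The slow counterparts were Myh7, Tnni1, Tnnt1 and Tnnc1. These are 10 of the 50226 gene names with usable values, 6 of them fast and 4 slow. A name listed at several loci was represented by the locus with the highest maximum level.

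Myosin heavy chains are the motors of the thick filament, and the type expressed by a fibre largely sets how fast it shortens. The troponin complex lies on the thin filament, where troponin C binds calcium, troponin I holds contraction off until calcium arrives and troponin T anchors the complex to tropomyosin. Slow fibres carry Myh7, fast fibres carry Myh2 (type 2A), Myh1 (type 2X) or Myh4 (type 2B), and in rodents the type 2B form is abundant in fast limb muscle.

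Total RNA was sequenced after rRNA depletion from skeletal muscle, 3 fat depots, cortex, kidney and liver. The depots were interscapular brown (BAT), visceral (VAT) and subcutaneous adipose tissue (SCAT). All mice were wild-type C57BL/6 aged 36 weeks (the study's text gives the substrain C57BL/6N), and the labels give the same diet, abbreviated NCD, for every tissue. Which muscle was dissected and how many animals each library holds are not given in the sources used here. There was 1 library per tissue, so no spread between replicates exists, no test was made, and it cannot be said which neighbours in an order of levels would still differ in other animals. Levels are FPKM, fragment numbers scaled for transcript length and for the size of the library, and can be set side by side between genes of a library. The deposited table holds no counts of fragments, and the depth of the libraries is therefore unknown.

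The muscle library carried its defining genes. Creatine kinase Ckm was at 8592 FPKM and the calcium buffer Pvalb at 4675 FPKM there, and all 6 skeletal muscle genes listed outside the sarcomere passed the muscle rule given further on. It also carried genes of fat cells, among them Cfd at 236.7 FPKM and Cidec at 24.7 FPKM, and Cox8b, a mitochondrial subunit found in both brown fat and muscle, at 5108 FPKM. Ucp1, which defines brown fat, was at 6552 FPKM in BAT and at 2.86 FPKM in muscle. The 3 liver genes listed were at 17.7 to 252.7 FPKM in VAT against 0.126 to 7.003 FPKM in BAT and SCAT, with Alb at 252.7, Ttr at 30.02 and Apoa1 at 17.7 FPKM in VAT. What part these genes have in the levels below was not tested.

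All 9 members with a value in skeletal muscle were highest in that tissue, and all 10 members had their highest level outside muscle in BAT. In muscle the fast genes ran from 304.2 FPKM for Myh2 to 9815 FPKM for Tnnt3, and the slow genes from 42.9 FPKM for Myh7 to 134.6 FPKM for Tnni1, so that no slow gene reached the lowest fast one. In BAT the ranges met, with 12.0 to 307.5 FPKM for the fast and 8.29 to 37.3 FPKM for the slow genes. VAT and SCAT held traces of most members. No member was listed at 0 in a fat depot, whereas Myh1 and Tnni1 were in kidney and Myh1, Myh4, Tnni1 and Tnnc2 in liver. These zeros depend on the locus used. At the locus on the gene's own strand, Myh1 was at 0.0283 FPKM in kidney and Tnni1 at 0.0253 FPKM in liver.

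**Figure D1:**
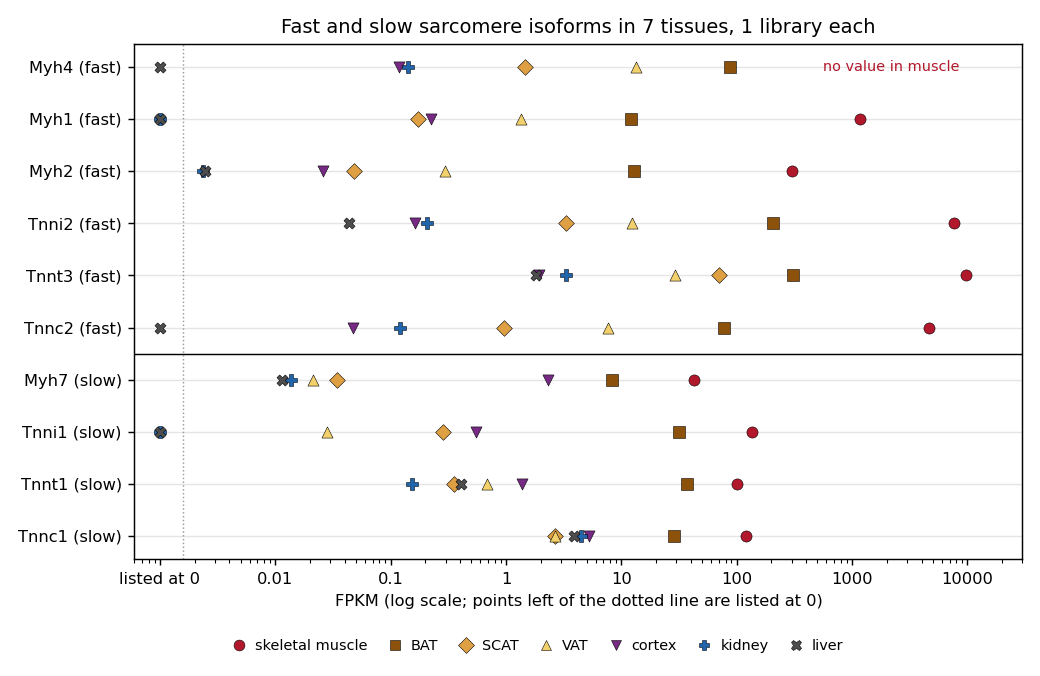
FPKM of the 10 genes on a log axis, fast genes above the line and slow genes below it, with 1 point per tissue and library. Skeletal muscle lies to the right for each of the 9 genes with a value there, from 42.9 FPKM for Myh7 to 9815 FPKM for Tnnt3, and BAT is the next point for all of them.

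A gene was counted as enriched in skeletal muscle when it reached 1 FPKM there and exceeded every other tissue by 2 or more on the log2(FPKM + 0.1) scale, which is 4-fold. By this rule 8 of the 9 members with a value were enriched, against a background of 3.38% (505 of 14925 protein-coding genes). All 5 fast genes passed and 3 of the 4 slow genes. The 5 fast genes also passed under each scaling, choice of locus and fold tried, but Tnni1 and Tnnc1 lay just above the limit, with differences of 2.08 each on the log2 scale. Tnni1 did not pass with all loci of a name summed or with the annotated strand only, which left 7 members, and neither gene did with libraries scaled to an equal sum, which left 6. The difference on the log2(FPKM + 0.1) scale between muscle and the next tissue had a median of 5.22 over the fast and 2.08 over the slow genes, beside -1.06 over all protein-coding genes tested. The pseudocount of 0.1 understates such differences for low values. Tnnt1 was the gene that missed the rule, with a difference of 1.44.

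The fast myosin genes form a row on chromosome 11, all on the forward strand. In the GENCODE annotation of GRCm38, Myh2 spans chr11:67171027-67197517, Myh1 spans chr11:67200052-67224575 and Myh4 spans chr11:67238029-67260446. Myh7 lies on the reverse strand at chr14:54970684-54994626. The bases upstream of the 4 myosin genes are shown because the fast ones are neighbours whose levels followed one order over the depots, BAT above VAT above SCAT, with Myh7 for comparison. That order is not particular to them, since Tnni2, Tnnc2 and the slow Tnnt1 had it as well. The sequences are from the RefSeq promoter table of GRCm38.p6, read 5′ to 3′ on the gene's strand from 250 bases before the start. Capitals mark the longest run of identical bases common to the windows of Myh4, Myh1 and Myh2, which is 20 bases long. The windows are chr11:67237562-67237811 for Myh4, chr11:67199852-67200051 for Myh1, chr11:67170777-67171026 for Myh2 and chr14:54994627-54994876 for Myh7. The Myh4 window overlaps an exon of the noncoding Myhas on the reverse strand, and GENCODE places the start of Myh4 further downstream than RefSeq does. For Myh1 the 50 bases nearest the RefSeq start were left out because GENCODE places them in an exon of the gene.
Myh4: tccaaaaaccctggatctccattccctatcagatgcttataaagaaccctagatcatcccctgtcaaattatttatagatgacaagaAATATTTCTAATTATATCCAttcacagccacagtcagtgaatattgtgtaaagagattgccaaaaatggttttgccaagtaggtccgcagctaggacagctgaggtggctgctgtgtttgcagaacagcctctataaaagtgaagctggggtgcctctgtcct
Myh1: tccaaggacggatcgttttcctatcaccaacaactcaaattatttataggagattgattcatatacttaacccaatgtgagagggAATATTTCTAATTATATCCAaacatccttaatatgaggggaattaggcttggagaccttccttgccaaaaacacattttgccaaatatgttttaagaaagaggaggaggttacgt
Myh2: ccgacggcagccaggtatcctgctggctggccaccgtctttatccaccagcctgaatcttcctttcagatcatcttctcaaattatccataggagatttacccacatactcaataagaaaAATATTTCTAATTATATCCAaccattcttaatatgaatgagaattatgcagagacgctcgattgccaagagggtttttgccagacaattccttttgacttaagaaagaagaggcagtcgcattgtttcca
Myh7: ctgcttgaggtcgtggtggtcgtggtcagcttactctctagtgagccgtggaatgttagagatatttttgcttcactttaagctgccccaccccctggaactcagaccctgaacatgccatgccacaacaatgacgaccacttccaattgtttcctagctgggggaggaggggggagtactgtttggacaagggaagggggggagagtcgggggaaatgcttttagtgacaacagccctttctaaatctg

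The shared run began 163 bases before the RefSeq start in Myh4, 165 in Myh1 and 130 in Myh2. Among 32851 promoter windows of the same length it occurred, on either strand, in these 3 alone (0.00913%). Because the run was chosen from these 3 windows, its presence in them was fixed, and the share is no background. A match to the 10-letter motif of the muscle factor MEF2, TTATTTATAG, stood upstream of the run in Myh4 and Myh1, and 2.92% of all windows held a MEF2 match. It covers a match to TATAAA on the other strand. TATAAA itself, searched on both strands, was found in the windows of Myh4, Myh1 and Tnnt1, 3 of the 8 members with a window, beside 12.4% of all windows. The E-box CANNTG, the letters bound by MyoD-type factors, was found in 6 of the 8 members, beside 66.2% of all windows. Tnni2 and Tnnt3 were not matched in the promoter table. These matches are letters in a window and were not tied to binding.

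Among the myosin genes in muscle, Myh1 was the highest with a value. Myh1, the type 2X motor, was at 1175 FPKM in skeletal muscle, 12.0 in BAT, 1.34 in VAT, 0.173 in SCAT and 0.222 in cortex, and was listed at 0 in kidney and liver. These values are from the locus read as lying opposite to the gene, which the rule selects as the higher one. The locus on the annotated strand was at 629.5 FPKM in muscle, 10.1 in BAT, 1.04 in VAT, 0.0757 in SCAT, 0.0269 in cortex and 0.0283 in kidney. At either locus only muscle and the brown and visceral depots exceeded 1 FPKM, and muscle was 97.7-fold above BAT at the first and 62.3-fold at the second. Myh2, the type 2A motor, was at 304.2 FPKM in muscle, 12.99 in BAT, 0.298 in VAT, 0.0481 in SCAT, 0.0261 in cortex, 0.00235 in kidney and 0.00246 in liver. Muscle was 23.4-fold above BAT for Myh2, a narrower gap than for Myh1, and the white depots were under 1 FPKM.

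Myh4, the type 2B motor, has no usable value in skeletal muscle. Both loci under its name are listed there at 0 with the flag LOWDATA in all 6 comparisons that include muscle, and so is Ttn, the giant spring protein of the sarcomere, at both of its loci. These zeros were treated as missing. Of the 94339 loci, 13 were flagged in this way in muscle, among them several mitochondrial genes. In the other tissues Myh4 was at 87.5 FPKM in BAT, 13.3 in VAT, 1.45 in SCAT, 0.117 in cortex and 0.141 in kidney, and was listed at 0 in liver. In each of the 3 fat depots it was the highest of the 4 myosin members. Its locus also carries the name Myh8, the perinatal myosin heavy chain, and the reads of the pair cannot be told apart in the table.

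Myh7, the slow motor that the heart also uses, was at 42.9 FPKM in muscle, 8.29 in BAT, 2.31 in cortex, 0.0346 in SCAT, 0.0212 in VAT, 0.0137 in kidney and 0.0114 in liver. Cortex stood above the white depots for this gene, and muscle was 5.18-fold above BAT. Myh7 was thus the lowest member in muscle. Mhrt, a noncoding transcript annotated opposite Myh7, had a row of its own at 8.62 FPKM in muscle and 0.695 FPKM in BAT.

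Fast myosin heavy chain made up 97.2% of the summed myosin heavy chain FPKM in muscle, from Myh1, Myh2 and Myh7 alone (1522 FPKM in all). Myh4, which is fast, is missing from it, and with the annotated strand of Myh1 alone the share was 95.6%. Myh1 contributed 77.2%, Myh2 20.0% and Myh7 2.82% of that sum. In BAT, Myh4 made up 72.4% of the sum of all 4 genes, Myh2 10.8%, Myh1 9.95% and Myh7 6.87%. In VAT the shares were 88.9% for Myh4, 8.94% for Myh1, 1.99% for Myh2 and 0.141% for Myh7. SCAT had 85.0% Myh4, 10.1% Myh1, 2.82% Myh2 and 2.02% Myh7, on a sum of only 1.71 FPKM.

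**Figure D2:**
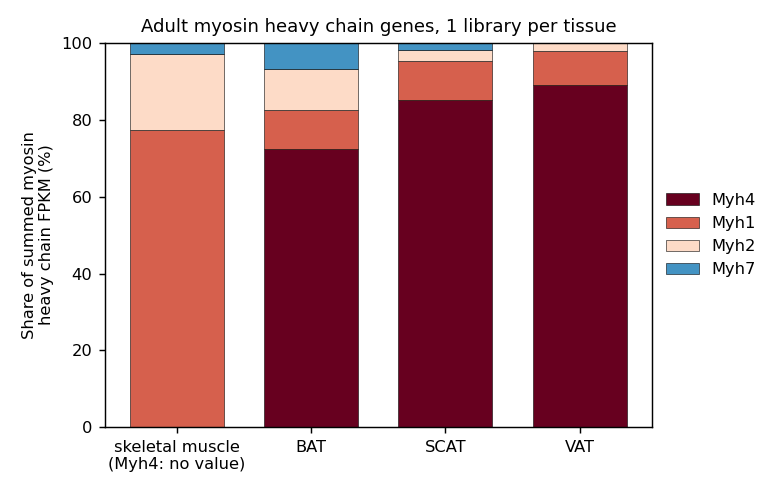
Share of the summed FPKM of Myh4, Myh1, Myh2 and Myh7 in skeletal muscle and the 3 fat depots, as stacked bars with 1 library each. Myh4 fills 72.4% to 88.9% of the bars of fat and is absent from the muscle bar because it has no value there, where Myh1 fills 77.2%.

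The 2 fast genes measured in all 4 tissues differed in their proportion. Myh1 was 3.86 times Myh2 in muscle, 4.50 times in VAT and 3.59 times in SCAT, whereas in BAT it was 0.925 times Myh2. With the annotated strand of Myh1 the ratios were 2.07 in muscle, 3.48 in VAT, 1.58 in SCAT and 0.778 in BAT, so that BAT remained the lowest but the gap to SCAT narrowed. Myh4 was 7.28 times Myh1 in BAT, 8.41 times in SCAT and 9.95 times in VAT, or 8.65, 19.2 and 12.9 times with the annotated strand. Compared over the same 3 genes, without Myh4, the fast share in BAT was 75.1%, against 97.2% in muscle and 98.7% in VAT.

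The developmental and specialised myosin genes, Myh3 of the embryo and Myh13 of the eye muscles, were low. Myh3 was at 0.870 FPKM and Myh13 at 0.606 FPKM in muscle, and in fat neither exceeded 0.159 FPKM. Neither was counted as enriched.

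Troponin I was likewise almost wholly fast in muscle. Tnni2, the fast form (chr7:142441808-142444410, forward strand), was at 7697 FPKM in muscle, 205.9 in BAT, 12.4 in VAT, 3.30 in SCAT, 0.208 in kidney, 0.162 in cortex and 0.0434 in liver. It was at least 1 FPKM in muscle and all fat depots and below that elsewhere. Tnni1, the slow form (chr1:135779434-135810989, forward strand), was at 134.6 FPKM in muscle, 31.7 in BAT, 0.547 in cortex, 0.287 in SCAT and 0.0281 in VAT, and was listed at 0 in kidney and liver. The Tnni1 values, too, are from a locus read as opposite to the gene, and on the annotated strand it was at 102.2 FPKM in muscle and 29.0 in BAT. Muscle exceeded BAT 37.4-fold for Tnni2 and 4.25-fold for Tnni1, or 3.53-fold on the annotated strand. The fast form was 98.3% of troponin I in muscle and 86.7% in BAT.

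Troponin T gave the highest level among the 9 members with a value in muscle, from a locus that carries a second gene name. Tnnt3, the fast form (chr7:142498836-142516009, forward strand), was at 9815 FPKM in muscle, 307.5 in BAT, 70.2 in SCAT, 29.0 in VAT, 3.28 in kidney, 1.93 in cortex and 1.83 in liver. It was the one fast member listed higher in SCAT than in VAT, an order that turned with libraries scaled to an equal sum. That second name is Lsp1, a gene of white blood cells, and SCAT held the B cell genes Ms4a1 at 50.6 FPKM and Cd79a at 35.6 FPKM and the T cell gene Cd3e at 3.40 FPKM, against at most 1.61 FPKM for these 3 genes in the other tissues. The part of Lsp1 in the SCAT value was not tested.

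Tnnt1, the slow troponin T (chr7:4504570-4516382, reverse strand), was at 101.6 FPKM in muscle, 37.3 in BAT, 1.37 in cortex, 0.684 in VAT, 0.411 in liver, 0.352 in SCAT and 0.152 in kidney. Its muscle level was 2.73-fold above BAT, the smallest gap among the members. The fast form was 99.0% of troponin T in muscle and 89.2% in BAT.

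Troponin C, the calcium sensor, had the slow gene that was most widespread. Tnnc2, the fast form (chr2:164777161-164779967, reverse strand), was at 4630 FPKM in muscle, 77.4 in BAT, 7.73 in VAT, 0.953 in SCAT, 0.122 in kidney and 0.0469 in cortex, and was listed at 0 in liver. Tnnc1, the slow form that the heart also uses (chr14:31208312-31211729, forward strand), was at 120.9 FPKM in muscle, 28.4 in BAT, 5.24 in cortex, 4.47 in kidney, 3.91 in liver, 2.68 in SCAT and 2.63 in VAT. The white depots were thus the lowest tissues for Tnnc1, below liver and kidney. Muscle exceeded BAT 59.8-fold for Tnnc2 and 4.25-fold for Tnnc1. The fast form was 97.5% of troponin C in muscle, 73.1% in BAT, 74.6% in VAT and 26.2% in SCAT.

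**Figure D3:**
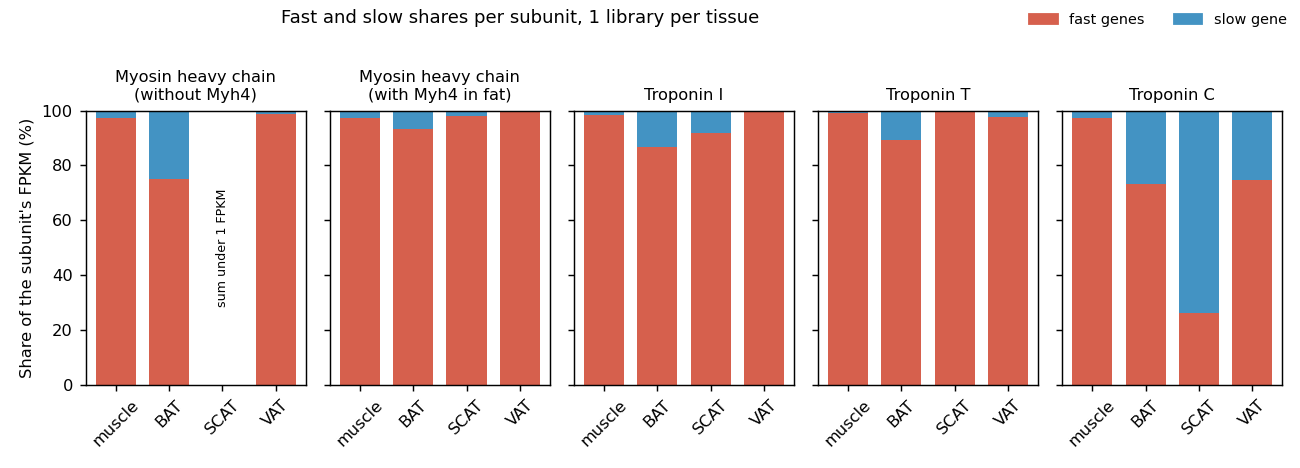
Fast (red) and slow (blue) shares of the summed FPKM of each subunit in skeletal muscle, BAT, SCAT and VAT, with 1 library per bar. The fast share is 97.2% to 99.0% in every muscle bar and 73.1% to 93.1% in the BAT bars with Myh4 included, and without Myh4 the myosin bar of BAT is at 75.1%. SCAT has no bar without Myh4 because its 3 remaining genes sum to 0.255 FPKM.

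Across the subunits the fast share in muscle lay between 97.2% and 99.0%. In VAT it was 99.9% for the myosin heavy chain, 99.8% for troponin I, 97.7% for troponin T and 74.6% for troponin C. In SCAT it was 98.0%, 92.01%, 99.5% and 26.2% in the same order, troponin T with Lsp1 in the locus. BAT had the lowest fast share of the 4 tissues for troponin I and troponin T, and for the myosin heavy chain whether or not Myh4 was included, whereas for troponin C the lowest was SCAT. In cortex the myosin heavy chain was 86.4% slow, from Myh7 at 2.31 FPKM. Troponin C was 99.1% slow in cortex, 97.4% in kidney and 100% in liver, where Tnnc1 stood above its level in SCAT.

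How much of the muscle level was present in brown fat differed between the fast and the slow genes. In BAT the 5 fast genes with a value were at 1.02% (Myh1) to 4.27% (Myh2) of their muscle FPKM, with a median of 2.68%. The 4 slow genes were at 19.3% (Myh7) to 36.7% (Tnnt1), with a median of 23.5%. The ranges did not overlap. In bulk tissue, fewer muscle cells and less of the RNA per cell cannot be told apart, and these percentages combine both.

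Measured against a threshold of 10% of the muscle level, all 4 slow genes and none of the 5 fast genes reached it in BAT. Among all protein-coding genes at 1 FPKM or more in muscle, 10273 of 10872 reached it, with a median of 88.8%. A narrower background is 52.6%, the share among 818 comparison genes. These are the other protein-coding genes 4-fold higher in muscle than in cortex, kidney and liver. Since fat was left out of that rule, the set also holds fat-cell genes such as Plin1 and Adipoq, and 107 of the 818 were higher in a fat depot than in muscle. The median of those genes in BAT was 11.2% of the muscle level, with the lower quartile at 2.82%. The median of the fast members lay under that quartile, and the median of the slow members above the median of the comparison genes.

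In the white depots the percentages were much lower, and the fast and slow ranges overlapped. No member reached 10% of its muscle level there, beside 39.9% of the comparison genes in VAT and 34.9% in SCAT. Among all protein-coding genes at 1 FPKM or more in muscle, 10124 of 10871 did in VAT and 9850 of 10871 in SCAT. In VAT the fast genes were at 0.0980% (Myh2) to 0.295% (Tnnt3) of the muscle level and the slow genes at 0.0209% (Tnni1) to 2.18% (Tnnc1). In SCAT the fast genes were at 0.0147% (Myh1) to 0.716% (Tnnt3) and the slow genes at 0.0805% (Myh7) to 2.22% (Tnnc1). Over all 9 members with a value the median was 4.27% in BAT, 0.162% in VAT and 0.0805% in SCAT, beside 11.2%, 6.31% and 4.80% over the comparison genes, fat-cell genes included. The BAT median rests on its middle gene: without Tnnt3, whose locus carries a second name, it was 11.8%. In SCAT the median was 0.0117% with libraries scaled to an equal sum.

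**Figure D4:**
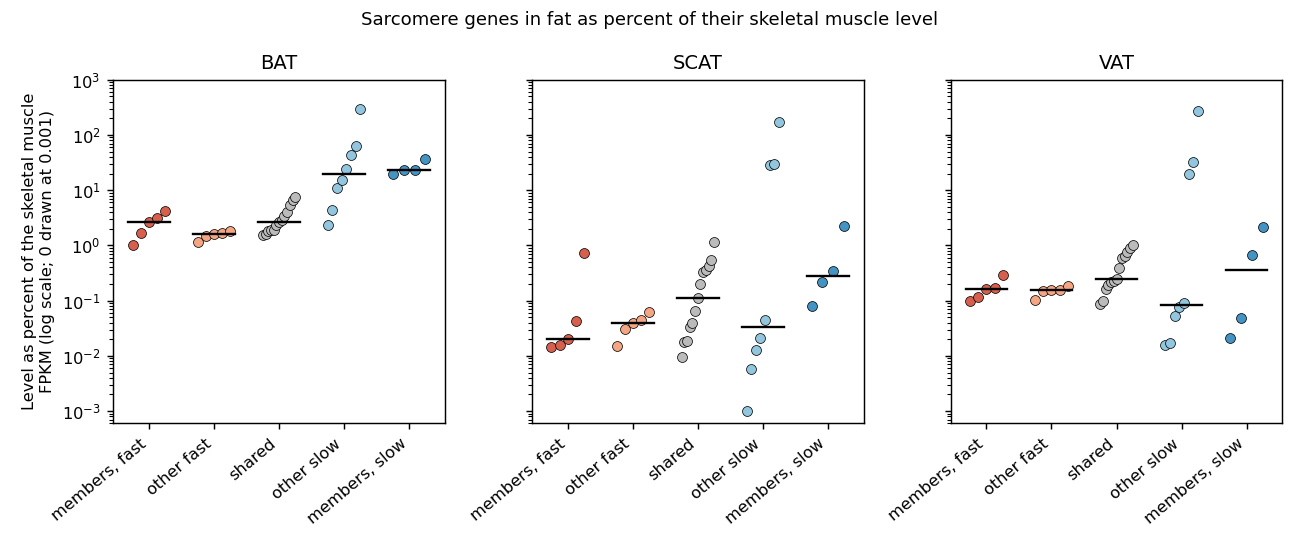
Level in each fat depot as a percent of the skeletal muscle FPKM (log axis), 1 point per gene, for the fast and slow members and for the other fast, shared and other slow sarcomere genes with a value, with lines at the medians. In BAT the slow members lie between 19.3% and 36.7% and the fast members between 1.02% and 4.27%, while in SCAT and VAT the 2 groups of members overlap.

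Counted by level, all 10 members were at 1 FPKM or more in BAT, where 50.3% of protein-coding genes and 73.7% of the comparison genes were. In VAT 6 of the 10 members were, 5 fast genes and Tnnc1, beside 52.3% of protein-coding genes and 61.5% of the comparison genes. In SCAT 4 of the 10 were, namely Myh4, Tnni2, Tnnt3 and Tnnc1, beside 50% and 57.6%.

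Between the depots, BAT stood above both white depots for each member. All 10 were at least 4-fold higher in BAT than in VAT on the log2(FPKM + 0.1) scale, where 9.84% of protein-coding genes and 24.1% of the comparison genes were. The FPKM ratio ran from 6.55 for Myh4 to 1127 for Tnni1, which was at only 0.0281 FPKM in VAT. All 10 were also at least 4-fold higher in BAT than in SCAT, beside 15.6% and 33.8%, with ratios from 4.38 for Tnnt3 to 270.3 for Myh2. With median-ratio scaling 9 of the 10 were, without Tnnt3, and with libraries scaled to an equal sum the ratios ran from 35.2 for Tnnt3 to 2172 for Myh2.

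Between the white depots, most fast genes were higher in VAT as listed. Myh4, Myh1 and Tnnc2 were at least 4-fold higher in VAT than in SCAT, which makes 3 of the 10 members, beside 6.34% of protein-coding genes and 6.24% of the comparison genes. Their FPKM ratios were 9.19, 7.77 and 8.12. Tnni2 was 3.77-fold and Myh2 6.203-fold higher in VAT, the latter from values under 0.3 FPKM. Tnnt3 ran the other way, with a VAT to SCAT ratio of 0.412. As listed, no slow gene was 4-fold higher in VAT, and the ratio was 1.94 for Tnnt1, 0.981 for Tnnc1, 0.614 for Myh7 and 0.0980 for Tnni1. These orders depend on the scaling and on the locus used. With all loci of a name summed the ratio of Myh7 was 1.97, and with the annotated strand only it was 13.7 for Myh1 and 0.206 for Tnni1. With libraries scaled to an equal sum 7 members were 4-fold higher in VAT, among them the 5 fast genes other than Tnnt3, with ratios of 70.8 for Myh4, 59.8 for Myh1, 62.5 for Tnnc2, 29.0 for Tnni2 and 47.7 for Myh2. In that scaling the ratio was 3.17 for Tnnt3, 15.0 for Tnnt1, 4.73 for Myh7, 7.55 for Tnnc1 and 0.754 for Tnni1.

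The other genes of the sarcomere were read from lists. The 5 other fast genes (the fast light chains Myl1 and Mylpf, myosin-binding Mybpc2, the Z-disc proteins Actn3 and Myoz1) all passed the muscle rule. Myl1 was at 7609 FPKM in muscle, 126.3 in BAT, 14.2 in VAT and 4.72 in SCAT. Mylpf was at 5595 FPKM in muscle, 81.9 in BAT, 8.60 in VAT and 1.70 in SCAT. In BAT the 5 genes were at 1.14% to 1.85% of the muscle level, inside the range of the fast members, and in VAT at 0.104% to 0.187%.

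The 8 other slow genes were at 2.36% to 294.4% of the muscle level in BAT, with a median of 20.0%, and 5 of them passed the muscle rule. Over those 5 the range was 2.36% to 24.7% and the median 11.1%, below the 23.5% of the slow members. Myl2, the slow regulatory light chain, was at 335.0 FPKM in muscle and 82.7 FPKM in BAT, but at 0.0577 FPKM in VAT and 0.0421 FPKM in SCAT. Csrp3, a Z-disc protein, was at 701.1 FPKM in muscle and 16.6 FPKM in BAT, and Mybpc1, the slow myosin-binding protein, at 541.1 FPKM and 23.2 FPKM. These 2 slow genes, at 2.36% and 4.29% of the muscle level, lay among or near the fast members in BAT rather than the slow ones. The 3 that did not pass, Tpm3, Myh7b and Myl6b, were at 43.9%, 62.5% and 294.4% of the muscle level in BAT and at 19.4% or more in VAT. Myl6b shares its locus with the broadly expressed Myl6 and was higher in BAT (328.4 FPKM) than in muscle (111.6 FPKM).

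Genes that both fibre types share were at 1.57% to 7.57% of the muscle level in BAT, with a median of 2.62% over the 13 with a value, all of which passed the muscle rule. Tropomyosin Tpm1 was at 8575 FPKM in muscle and 140.4 FPKM in BAT, and the thin filament ruler Neb at 1861 and 34.2 FPKM. Tpm2 was at 1563 and 104.1 FPKM. Ttn has no value in muscle, and Acta1 was not analysed here.

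None of 7 cardiac genes passed the muscle rule, and Myl4, the highest of them in muscle, was at 6.03 FPKM there and 3.53 to 3.89 FPKM in the fat depots. Myh6, the cardiac myosin heavy chain next to Myh7, was at 0.303 FPKM in muscle and 0.0884 FPKM in BAT, and Myl7 was listed at 0 in both. Tnni3, the cardiac troponin I, whose locus also carries the name Dnaaf3, was at 0.216 FPKM in muscle and 1.92 in SCAT. Nor did any of 4 smooth muscle genes, of which Acta2 was at 31.9 FPKM in muscle, 15.1 in BAT, 41.3 in SCAT and 125.8 in VAT, and Tagln at 11.7, 10.1, 9.21 and 28.5 FPKM. VAT was thus the highest depot for both.

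The 3 genes of satellite cells and myogenic cells all passed, at low levels. Myod1 was at 7.97 FPKM in muscle and 0.0904 FPKM in BAT and Myf5 at 3.72 and 0.0776 FPKM, which is 1.13% and 2.08% of the muscle level. Pax7 was at 1.17 FPKM in muscle and listed at 0 in BAT. The 6 muscle genes outside the sarcomere were at 1.43% to 5.97% of the muscle level in BAT, with a median of 1.58%.

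Genes whose profile over the 7 tissues was most like the members' were found by Pearson correlation of log2(FPKM + 0.1) among 14889 genes, as a description over 7 points that share the scaling of their libraries. For the mean profile of the 5 fast members they were Mybpc2 (r = 0.997), the AMP deaminase Ampd1 (0.993) and Myoz1 (0.993). For the 4 slow members they were the DNA repair nuclease Mus81 (0.998), Sln (0.993) and Myl2 (0.990). Sln, sarcolipin, a small inhibitor of the calcium pump, was at 12.3 FPKM in muscle, 4.80 in BAT, 0.0757 in VAT and 0 as listed in SCAT. Mus81 ran only from 4.06 to 10.02 FPKM over the tissues, so its likeness is of shape and not of range.

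Several members had a second locus on the other strand, and the strand is not written in the table but was read from the order of its rows. For Myh1 and Tnni1 the locus with the higher level, which was used, was read as lying on the strand opposite to the gene, where the annotation has the noncoding Myhas for Myh1. The opposite strand held 65.1% of the summed level of Myh1 in muscle, 56.8% for Tnni1 and 8.16% for Tnni2. Opposite Myh2 the annotation has 9430073C21Rik, with a row at 82.5 FPKM in muscle and 2.15 in BAT. Opposite Tnnc2 it has Ube2c, with a row at 575 FPKM in muscle and 8.94 in BAT. The library kit keeps strand, but the strand setting of the quantification is not given in the sources used here, and so sense and antisense reads of these genes cannot be assigned.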

How the data were processed

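RNA-seq covered 7 tissues of C57BL/6 mice, 1 library each, grouped by the tissue in the labels. Libraries were rRNA-depleted, directional and paired-end. The authors aligned reads with STAR 2.6.0c after removing rRNA reads with Bowtie2 2.2.9, on GRCm38 (mm10), assembled and merged transcripts with Cufflinks 2.2.1 and ran cuffdiff between all pairs of tissues. The FPKM values used here are in the gene table that the authors deposited. Its library type and scaling between libraries are not given in the sources used here. The authors' log2 fold changes, test scores, p-values and q-values in that table were not used.

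The table holds 94339 loci in 21 comparisons. The 151 loci with status FAIL were left out, zeros flagged LOWDATA were set to missing, and a name at several loci took the one with the highest maximum FPKM. Of 50226 names, 91.9% were found in GENCODE M21. The bounds given for a locus can span neighbouring genes with rows of their own. Strand was read from the order of rows, and 75.3% of 62045 pairs of locus and name then lie on the annotated strand. Levels were compared as log2(FPKM + 0.1). The table gives no counts, so depth, and any interval that needs it, is unknown. No p-value was computed, since every tissue had a single library.

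The members and gene lists were chosen with earlier results of these data known. Named are all members, from each list the 2 genes highest in muscle and the 2 highest in any fat depot where the text describes that list, and the 3 genes most like the fast and the slow profile. Further genes were picked for the text once their values were known, among them Lsp1, Plin1, Adipoq, Myhas, Mhrt, Ms4a1, Cd79a and Cd3e. Lists covered other fast, other slow and shared sarcomere genes, developmental myosins, cardiac, smooth muscle, myogenic, other muscle, fat, brown fat, liver, kidney and cortex genes. None of the fat, brown fat, liver, kidney and cortex genes passed the muscle rule. The rule was also run on simulated data with genes raised well past the limit, which cannot inform on genes close to it. Alternatives covered the pseudocount, the minimum, the fold, the scaling, the choice of locus, LOWDATA zeros and strand. Python 3.11.15, pandas 2.3.3, NumPy 2.4.6 and matplotlib 3.10.9 were used.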

Additional observations from a re-analysis of the deposited data

How the results depend on the processing

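No paired analysis was possible because each tissue has 1 library and no result comes from a test. Leaving out a replicate was not possible for the same reason. Of 231 alternatives, 185 left a value within 1.5 times (for shares, the slow share was judged), 42 moved it further and 4 turned an order between depots. These 4 are VAT to SCAT ratios, of 4.73 for Myh7, 3.17 for Tnnt3 and 7.55 for Tnnc1 with libraries scaled to an equal sum and of 1.97 for Myh7 with all loci summed. The tally is not a measure of stability. A gene with a single locus on its own strand cannot change when loci are summed or only the annotated strand is kept. Each scaling moves all members of a library by the same factor.

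In muscle, the fast share of the myosin heavy chain was 95.6% with the annotated strand only, and that of troponin I was 97.3% with all loci of a name summed. A 16-fold rule left 5 members enriched, and an equal-sum scaling put 7 members 4-fold higher in VAT than in SCAT. Summing all loci gave fast shares of 99.7% for the myosin heavy chain in VAT and, for troponin I, 99.5% in VAT and 78.1% in BAT. Without Myh4 the fast share of the myosin heavy chain was 98.7% in VAT, 86.5% in SCAT and 75.1% in BAT, and with the annotated strand only the fast share of troponin I in SCAT was 95.8%. In fat, the settings without Myh4, with the annotated strand only, with other settings for folds between depots and without members at a locus with another gene's name were chosen after seeing the data, as was the annotated strand for the count of enriched members.

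The median member level as percent of muscle was, for fast members alone, 2.68% in BAT and 0.0206% in SCAT, and for slow members alone 23.5% in BAT, 0.280% in SCAT and 0.362% in VAT. It was 0.0117% in SCAT when libraries were scaled to an equal sum and 11.8% in BAT without members at a locus with another gene's name. With a minimum of 0.1 FPKM, 8 members counted as present in SCAT, and with 5 FPKM, 1. Median-ratio scaling shifted all genes of a library by -0.23 in muscle to 0.31 in SCAT, and equal-sum scaling by -2.04 in SCAT to 2.14 in cortex, on the log2 scale. Shares within a library do not depend on scaling. The table gives no counts, so how much depth limits the traces in SCAT and VAT is unknown.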
